A study of Mus musculus with 4 samples.

Results

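Transcripts annotated as targets of nonsense-mediated decay were examined by RNA sequencing of neural stem cells sorted from the adult mouse brain, in 4 libraries. A transcript was a member if its Ensembl identifier, read without its version, had the type nonsense-mediated decay in the GENCODE M21 annotation of GRCm38. This gave 5686 members of 99567 deposited transcripts, belonging to 3667 parent genes, of which 2418 had 1 member and the richest had 13. The rule reads the annotation and no measured value. The 4 libraries form 1 group, labelled activated EGFR+ cells with the markers Prom1+, EGFR+ and GFAP+, sorted from untreated gfap:GFP transgenic animals of a CD1/C57BL/6 mixed background at 3 months of age. The series' design text speaks instead of quiescent cells and of an injection of aCSF or of antagomers to miR204. As the labels mention neither agent, no groups were compared, and the spreads below could also hold such a difference. The reporter is driven by the Gfap promoter, which mature astrocytes also use. Whether each library is a separate animal is not in the labels, and the SDs and p-values measure only the spread between these libraries, which may be technical. Gfap, Prom1 and Egfr were present in all libraries, at means of 149 ± 54.4, 23.1 ± 7.01 and 89.7 ± 23.1 TPM (SD, n = 4), a transcript level corrected for length. All 14 stem cell or astrocyte markers reached 1 TPM. But so did all 8 oligodendrocyte, all 8 neuroblast, all 10 microglial, all 10 ependymal, all 10 mature neuronal and all 5 erythroid markers. Their sums ranged over the libraries from 2515.3 to 4343.1 TPM for the oligodendrocyte list and from 59.85 to 2341.5 TPM for the erythroid list. Only 2 of 7 endothelial or mural markers reached 1 TPM, and Cdh5 and Kcnj8 were listed at 0.

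Nonsense-mediated decay is the surveillance pathway that degrades mRNAs whose translation stops too early. When a ribosome terminates well upstream of an exon junction, the exon junction complex left there by splicing recruits UPF1 and its partners, and the mRNA is cut or decapped. Many genes, above all those for splicing factors, make such transcripts on purpose by including a poison exon, a conserved exon that carries a stop codon, and so lower their own output. The annotation names the type from the position of the stop codon; it does not record that a transcript is degraded, and a steady-state level cannot separate synthesis from decay.

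The position that defines the class was described from the same annotation, so its contrast with protein-coding transcripts follows from the definition. An annotated stop lay more than 50 bases before the last exon junction in 5652 of 5685 members with an annotated stop (99.4%), against 291 of 40014 protein-coding transcripts (0.727%). The median distance from stop to last junction was 328 bases, and the median coding length was 300 bases against 957 bases in protein-coding transcripts. The annotation tags 1675 of the 5686 members as lacking a found mRNA start, so their coding lengths may be incomplete. All 5685 annotated stops read as a stop codon in the M21 sequence, with TGA in 3292, TAA in 1273 and TAG in 1120. The last coding bases of several abundant members are shown because they hold much of the signal described below. Each runs 5′ to 3′ from the GENCODE M21 transcripts of GRCm38 and ends in the stop codon, in capitals.
Ppia-201: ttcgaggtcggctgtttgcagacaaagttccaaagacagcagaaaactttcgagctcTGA
Prdx6-208: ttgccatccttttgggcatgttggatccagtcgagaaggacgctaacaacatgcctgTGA
Hnrnpu-206: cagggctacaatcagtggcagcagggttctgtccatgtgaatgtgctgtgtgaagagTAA
Mobp-204: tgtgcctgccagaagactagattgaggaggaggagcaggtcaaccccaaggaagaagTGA
Glo1-201: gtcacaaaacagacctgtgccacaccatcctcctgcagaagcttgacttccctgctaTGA
Atp5f1-203: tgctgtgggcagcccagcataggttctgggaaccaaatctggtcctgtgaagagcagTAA
Srsf3-201: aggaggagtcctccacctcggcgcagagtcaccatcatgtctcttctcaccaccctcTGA
The stop of Ppia-201 lay in its exon 3 (chr11:6418226-6418314, plus strand), 40 codons from the start and 244 bases before the last junction. That of Prdx6-208 lay in exon 2 (chr1:161244196-161244342, minus strand) and that of Glo1-201 in exon 4 (chr17:30600039-30600179, minus strand). In these 3 transcripts the stop fell inside an exon that a protein-coding transcript of the gene also uses. Hnrnpu-206 differed in that its stop came in exon 14 (chr1:178325243-178325313, minus strand), after 793 codons. Its coding part of 2379 bases was nearly that of Hnrnpu-201, 2400 bases, and the annotation tags it as readthrough. The stop of Mobp-204 in exon 4 (chr9:120173151-120173375, plus strand) was that of a protein-coding transcript, followed here by a further junction. Its coding length of 243 bases compares with 510 bases for Mobp-201, the main protein-coding transcript here. Atp5f1-203 and Srsf3-201 stopped in an exon that overlaps no exon of a quantified protein-coding transcript. For Atp5f1-203 this was exon 3 (chr3:105957870-105958036, minus strand), and for Srsf3-201 exon 4 (chr17:29039454-29039909, plus strand). Glo1-201 and Srsf3-201 were deposited in another version and length than in M21, so their printed bases are those of the M21 version.

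A second set shows the stops of genes taken up further below: the splicing factors Srsf6, Tra2b and Tra2a, and Atp2b2, which encodes a calcium pump of the plasma membrane.
Srsf6-201: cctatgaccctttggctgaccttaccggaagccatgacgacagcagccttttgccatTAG
Tra2b-206: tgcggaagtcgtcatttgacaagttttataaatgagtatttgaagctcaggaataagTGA
Tra2a-202: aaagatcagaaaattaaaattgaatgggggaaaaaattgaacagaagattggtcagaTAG
Atp2b2-206: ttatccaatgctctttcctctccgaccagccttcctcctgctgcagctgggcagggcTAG
The stops of Tra2b-206 and Tra2a-202 lay in exon 2 of each (chr16:22258986-22259261 and chr6:49252803-49253108, both minus strand), 1015 and 964 bases before the last junction. Both exons stood apart from all exons of the quantified protein-coding transcripts. Srsf6-201 stopped in exon 3 (chr2:162932815-162933082, plus strand), at the stop of a protein-coding transcript that is followed here by further junctions. Its coding length of 405 bases compares with 1017 bases for Srsf6-203, the main protein-coding transcript here. Atp2b2-206 stopped only in exon 23 of 24 (chr6:113751564-113751690, minus strand), 119 bases before its last junction. Tra2b-206 was also deposited in another version than in M21.

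Members held a small and steady share of each library. Their share of TPM, which sums to the same total in each library, was 2.03, 1.955, 2.241 and 2.147% in libraries 1 to 4. The mean was 2.093 ± 0.126% (SD, n = 4), and library 3 was highest. Retained intron transcripts, an annotated class that keeps intronic sequence, held 3.161, 4.28, 4.568 and 3.583%, or 3.898 ± 0.642%. The highest member share was below the lowest retained intron share, so the ranges of the classes did not overlap. The retained intron class was larger, at 17248 transcripts against 5686 members. The shares are not corrected for class size and do not give the level per transcript. The difference was -1.8 ± 0.614 percentage points and below 0 in 4 of 4 libraries (p = 0.125, two-sided exact sign-flip permutation test, the smallest p that 4 libraries allow). By estimated counts, which favour long transcripts, the difference was -0.809 points, with members at 1.991 ± 0.078% and retained introns at 2.801 ± 0.511%. Protein-coding transcripts held 81.33 ± 1.18% of TPM.

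**Figure D1:**
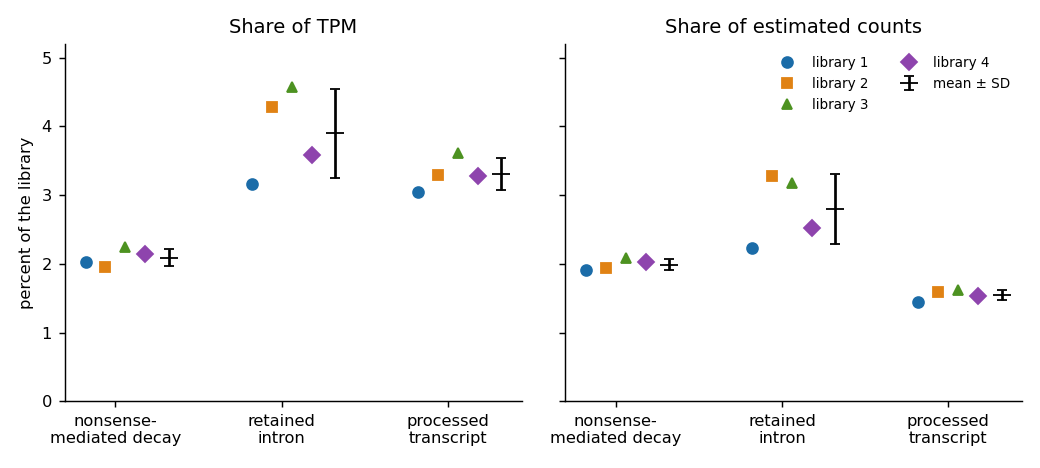
Share of each library held by 3 transcript classes, in percent of TPM (left) and of estimated counts (right); coloured symbols are the 4 libraries, and the bar is the mean with its SD. Members lie between 1.955 and 2.241% of TPM, below every retained intron value, and vary less between libraries. The retained intron class has 17248 transcripts against 5686 members.

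The depth behind these shares was 22695719, 20526059, 16978938 and 23727664 estimated counts per library, of which 433535, 399495, 353822 and 480301 fell on members. Most of the signal sat in few transcripts. Of all members 106 held 50% of the member TPM, the 12 highest held 27.8%, and Ppia-201 alone held 9.17%. At the other end, 1346 members had no count in any library. At 3 counts, the limit that a count of 0 allows, the median such member would reach 0.269, 0.29, 0.386 and 0.261 TPM in libraries 1 to 4, so low levels were not detectable at this depth. A count in any library was found for 4340 members (76.3%, against 73.2% of protein-coding transcripts) and a count in all 4 for 1899. A mean of at least 1 TPM was reached by 2093 members, of at least 10 TPM by 362 and of at least 100 TPM by 16. These limits cover counting error only, since the low-input cDNA was amplified and the labels name no molecular identifiers.

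Each transcript with a count was tested against a level of 1 TPM with limma on log2(TPM + 1), adjusted by Benjamini-Hochberg over 68226 transcripts. Among 4340 members, 954 lay above 1 TPM (22%, against 30.9% of all transcripts tested), 1329 lay below it (30.6%, against 29%), and 2057 passed in neither direction. Members were thus called above 1 TPM less often than transcripts at large, a difference given here as a description. With edgeR's quasi-likelihood test on rounded counts, 1073 members were above (24.7%, against 33.5% of all transcripts) and only 32 below (0.737%, against 1.14%). The call below 1 TPM therefore depends on the test. Among transcripts of 10 to 100 TPM, the median SD of log2(TPM + 1) over libraries was 0.338 for 346 members, 0.276 for protein-coding transcripts and 0.45 for retained introns.

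The stop most often lay within ordinary coding-transcript exons rather than in a separate exon. In 3383 members (59.5%) the stop lay inside an exon of a protein-coding transcript, as when exon skipping shifts the reading frame, and these held 69.7 ± 1.37% of the member TPM. In 1126 members (19.8%) it lay in an exon apart from all coding-transcript exons, the arrangement of a poison exon, and these held 14.1 ± 0.603%. A further 694 members stopped in an extension of such an exon (7.26 ± 0.835% of member TPM), and 389 at a coding transcript's own stop that is followed by a junction (7.32 ± 0.23%). The order of the first pair was the same in every library. The share of tested members above 1 TPM was 22.8% for stops inside coding-transcript exons and 20.5% for stops in separate exons. The untranslated parts of coding-transcript exons were counted too.

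How well a member can be told from its neighbours was measured by its own 31-base words, that is, stretches of 31 bases found in no other quantified transcript. Members had a median of 30 such words, about what a single new exon junction creates. There were none in 718 members (12.6% of members), which held 13.3 ± 0.154% of the member TPM. A further 2401 members (42.2%) had 1 to 30 and held 52.0 ± 1.97%. More than 30 were found in 2567 members (45.1%), which held 34.7 ± 2.12%. Members with few or no words of their own thus carried most of the class's signal in all 4 libraries, and were also most of the members. Their levels rest on how the quantifier divides shared reads, and the part of that division in the results below was not tested. The annotation also grades the evidence for each transcript model, from support level 1, the best, to 5, the weakest. Level 5 was given to 2168 members (38.1%), which held 38.2 ± 0.705% of the member TPM. Level 1 was given to 1909 members (33.6%), which held 40.2 ± 0.87%.

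**Figure D2:**
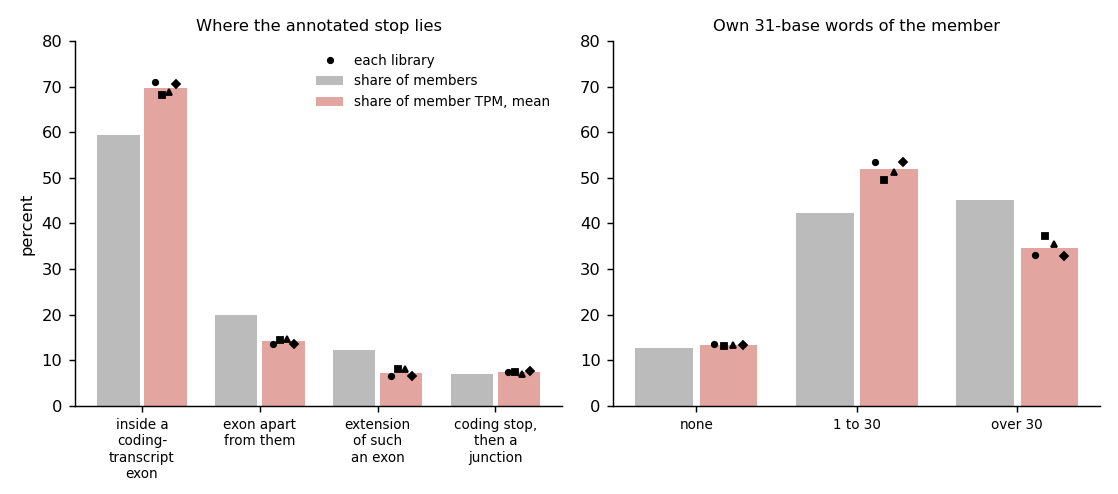
Members by the place of their annotated stop (left) and by their number of own 31-base words (right); grey bars give the percent of members, red bars the mean percent of member TPM, and black symbols the 4 libraries. Stops inside coding-transcript exons account for 69.7% of member TPM. Members with at most 30 own words account for most of the member TPM and are also most of the members.

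Within their own genes, members were usually the minor product. Over the 3118 parent genes of at least 1 TPM, the median share of gene TPM held by members was 5.73% (quartiles 1.18 and 18.2%), 1185 genes gave more than 10% to them, and 355 parent genes showed none in any library. For 3031 genes with a quantified protein-coding transcript, the log2 ratio of member TPM + 1 to protein-coding TPM + 1 was tested within libraries with limma, together with 6259 retained intron ratios. Members were lower in 2543 genes (83.9%, against 84.4% of all 9290 ratios), higher in 137 (4.52%, against 3.75%) and passed in neither direction in 351. These shares are near the background of the test and near those of retained introns, which were higher in 3.37% and lower in 84.6%. The median log2 ratio was -2.65 for members and -2.64 for retained introns. Of the 137 genes, 132 had the higher member level in 4 of 4 libraries. With edgeR's quasi-likelihood test 118 genes were higher (background 3.14%), of which 115 were shared, and 2274 lower (75%, against a background of 75.9%).

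**Figure D3:**
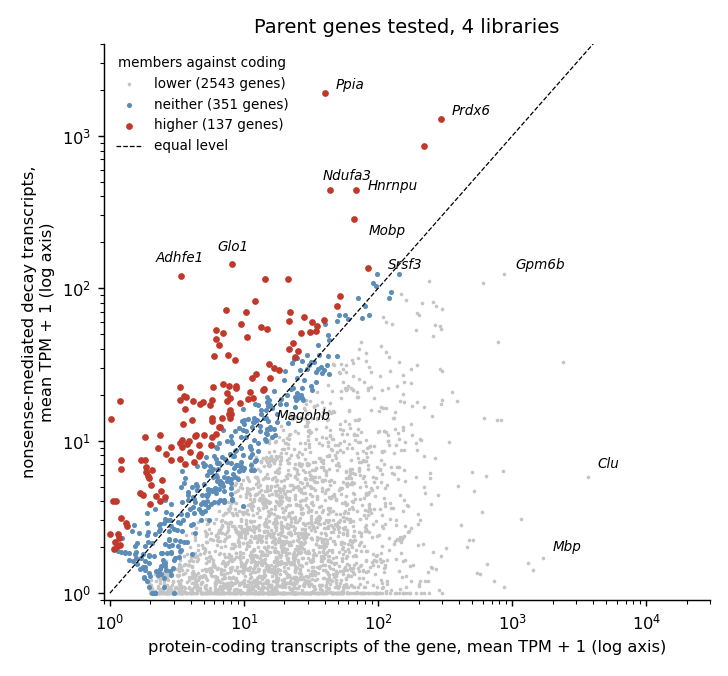
Mean TPM + 1 of the members against that of the protein-coding transcripts for each of 3031 parent genes, both axes on a log scale; colour gives the result of the limma test and the dashed line equal levels. Most genes lie below the line (2543 lower), while 137 genes, among them Ppia, Prdx6 and Hnrnpu, lie above it.

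Genes led by members were a small set. Members held more than 50% of the gene's TPM in all 4 libraries in 113 of 3118 genes (3.62%, against 2.74% of genes for retained introns). Of these, 79 were also called higher than protein-coding, 10 passed in neither direction, and 24 had no protein-coding transcript quantified. A single member ranked above every other transcript of its gene in all libraries in 163 genes (5.23%, against 2.71%), and 102 genes met both criteria. Just outside the 50% threshold stood Gm38394, at 50% in its lowest library, and Slco1c1, at 49.97%, and just inside it Rxylt1, at 50.07%. In the 79 genes the top member was shorter than the top protein-coding transcript in 58 (73.4%), with median lengths of 2061 and 2992 bases. Over all parent genes of at least 1 TPM it was shorter in 76.6%. The median number of own 31-base words was 29 in the led set and 30 over all, and a protein-coding transcript of M21 was not analysed here for 7.59% of the led genes and 6.09% of all.

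The highest member of all came from Ppia, which encodes the peptidyl-prolyl isomerase cyclophilin A and is often used as a reference gene. Ppia-201 stood at 2078.3, 1760, 1811.1 and 2029.1 TPM in libraries 1 to 4, while the protein-coding transcripts of Ppia together stood at 40.55, 38.08, 37.97 and 40.35 TPM. The levels were close in all libraries and did not overlap between the classes, and members made up 91.5 ± 0.823% of the gene's TPM. The log2 ratio was 5.57 ± 0.20 (SE; limma adjusted p = 3.7e-07). Ppia-201 has 29 own 31-base words, is 746 bases long against 1170 bases for Ppia-202, the main protein-coding transcript here, and 1 protein-coding transcript of Ppia in M21 was not analysed here. Ppia also has many near-identical processed pseudogenes, so its reads may be divided among copies. Ppia-201 is a model of support level 5, as are Ndufa3-204, Cyth2-205, Srsf6-201 and Mgll-209 below. Prdx6-208, Hnrnpu-206, Mobp-204, Glo1-201 and Atp5f1-203 are at level 1.

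Prdx6, which encodes the antioxidant enzyme peroxiredoxin 6, gave the next member. Prdx6-208 was at 1402.9, 972.6, 1519.7 and 1262.3 TPM, lowest in library 2. The protein-coding transcripts stood at 314.1, 220.4, 316.4 and 321 TPM, lower in every library (log2 ratio 2.13 ± 0.20, limma adjusted p = 2.1e-05). Members nevertheless held only 49.1 ± 0.835% of the gene's TPM, with protein-coding and other types of transcript holding the remainder. Ndufa3, a small subunit of respiratory complex I, was at 448.8, 423.2, 361.3 and 513 TPM in its members, 90.2 ± 1.04% of the gene. Ndufa3-204, which carried nearly all of that, has no own 31-base word and its stop lies 56 bases before the last junction. It is only 343 bases long, against 515 bases for Ndufa3-201, and rested on 736.5 to 1635 estimated counts per library.

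Hnrnpu, which encodes a nuclear scaffold and RNA-binding protein, had member levels of 466, 378.4, 492.2 and 428.1 TPM against 76.66, 56.68, 72.86 and 64.89 TPM in protein-coding transcripts. Members held 76.9 ± 2.61% of the gene, and the log2 ratio was 2.69 ± 0.21 (limma adjusted p = 6.3e-06). Most of this was Hnrnpu-206, the readthrough transcript shown above. Its length of 2844 bases compares with 7640 bases for Hnrnpu-201.

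Mobp, which encodes a structural protein of myelin made by oligodendrocytes, had a member share set apart in 1 library. Mobp-204 was at 322.1, 263.1, 240.1 and 306.2 TPM, highest in library 1. The protein-coding transcripts were at 18.59, 71.73, 71.95 and 98.39 TPM, lowest in library 1. The share held by Mobp-204 was therefore 94.5% in library 1 and 78.6, 76.9 and 75.7% in the others (log2 ratio 2.31 ± 0.42, limma adjusted p = 0.00087). With same-version transcripts only the ratio was 5.09 (adjusted p = 0.00023), and 2 protein-coding transcripts of Mobp in M21 were not analysed here. The other 7 oligodendrocyte markers summed to 2174.7, 3326.1, 3003.9 and 3938.5 TPM, also lowest in library 1; their part in the Mobp result was not tested. In bulk samples fewer cells of a type and less RNA per cell cannot be told apart. Mobp-204 differs from most members in having 2039 own 31-base words. Mbp, the myelin basic protein gene, had a member too, but at 0, 2.445, 0 and 0.3212 TPM against a mean gene level of 1705.6 TPM.

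The other led genes with the highest member levels encode enzymes and housekeeping proteins. Glo1, the glyoxalase that detoxifies methylglyoxal, had Glo1-201 at 154.7, 123.9, 154.4 and 142.6 TPM, or 95.2 ± 0.866% of the gene (log2 ratio 4.15 ± 0.23, limma adjusted p = 1.2e-06). Glo1-201 has 1205 own 31-base words in its M21 version, which differs in length from the deposited one. The words were not compared with 3 protein-coding transcripts of Glo1 in M21 that were not analysed here. Adhfe1, a mitochondrial hydroxyacid dehydrogenase, had the highest share of those named, 98.1, 98.1, 98.5 and 97.4%, with protein-coding transcripts at 2.068 to 2.907 TPM. Atp5f1, a subunit of the mitochondrial ATP synthase, showed 158.8, 115.2, 143.9 and 117.4 TPM in Atp5f1-203, the transcript with the separate stop exon. Its protein-coding transcripts were at 83.17, 75.79, 90.48 and 82.64 TPM, below the member in every library. The log2 ratio for Atp5f1 was 0.67 ± 0.22 (limma adjusted p = 0.019), and it did not pass without library 1 (adjusted p = 0.066) or without library 3 (adjusted p = 0.057).

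Shares near 90% were also found for Mrps14, a mitochondrial ribosomal protein (89.3 ± 1.61%), and Cyth2, an exchange factor for ARF GTPases (91.6 ± 1%). Those of Kmt2e, a SET-domain chromatin protein (86.2 ± 3.22%), and Naa60, an N-terminal acetyltransferase (85.8 ± 2.62%), were lower. Naa60-201 has the same coding length as the protein-coding Naa60-207, 726 bases, and no own 31-base word. By itself it held 62.3 to 81.1% of Naa60 over the libraries. For Cyth2 the call did not hold with same-version transcripts only (log2 ratio 0.33, limma adjusted p = 0.22, against 3.27). Pcnp, a nuclear protein, had 91.6% in library 1 and 81.4 to 83.3% in the others. Tmem234, a membrane protein with 13 members, was at 59.6, 50.5, 55.8 and 61.7%. Eef1b2, a subunit of the factor that recharges eEF1A with GTP, was at 52.5, 61.7, 64.9 and 58.4%. Its log2 ratio of 0.67 ± 0.24 (limma adjusted p = 0.028) did not pass without library 2, 3 or 4, at adjusted p values of 0.087, 0.11 and 0.053, nor with a pseudocount of 0.1 (adjusted p = 0.057). The top members of Adhfe1, Kmt2e, Pcnp and Eef1b2 have 27 own 31-base words each. That of Tmem234 has none, and those of Mrps14 and Cyth2 have 52 and 57, the latter in its M21 version.

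**Figure D4:**
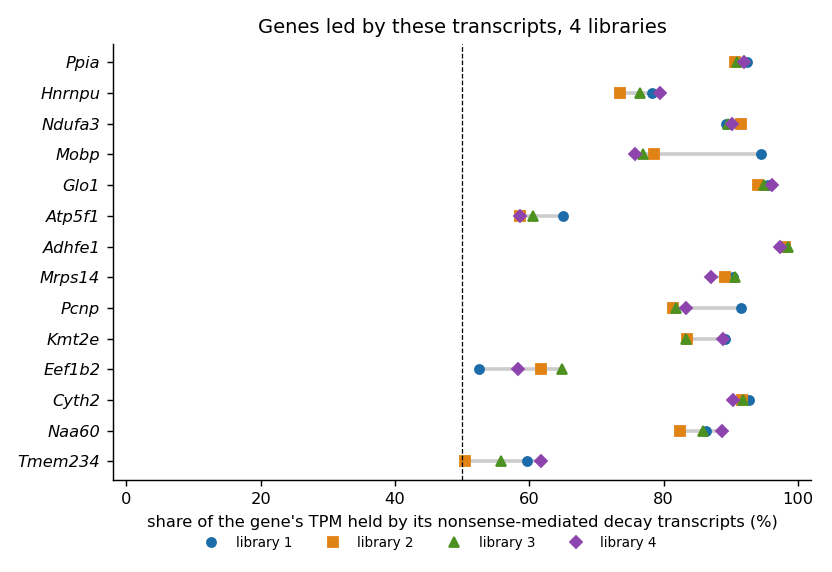
Share of gene TPM held by members in each library (symbols) for genes of high member level among those led by members; grey lines join the lowest and highest library and the dashed line marks 50%. Adhfe1, Glo1, Ppia and Cyth2 stay above 90% in every library, while Mobp is set apart by library 1 at 94.5%.

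The SR proteins, a family that selects splice sites and is known for poison exons, were taken next. Of 13 genes 10 had members and were tested: none was higher than protein-coding (4.52% over all parent genes), 7 were lower (83.9% over all) and 3 passed in neither direction (11.6% over all), with a median share of 10.1% against 5.73% over all parent genes. Srsf3, the smallest classical SR protein, had the highest member. Srsf3-201, with its stop in the separate exon 4, was at 129.6, 105.7, 144.6 and 110.3 TPM, against 98.48, 80.48, 99.52 and 109.5 TPM in protein-coding transcripts. The member was above protein-coding in 4 of 4 libraries, but the ratio did not pass the test (log2 ratio 0.33 ± 0.22, limma adjusted p = 0.19), and members held 33.3 ± 2.45% of Srsf3.

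Srsf6 was the SR gene with the largest share, 56.7, 50.5, 51.9 and 55.3%, above 50% in every library. Srsf6-201 stood at 69.34, 61.78, 70.93 and 61.35 TPM and protein-coding transcripts at 52.73, 58.33, 64.28 and 47.63 TPM, and the log2 ratio of 0.24 ± 0.22, above 0 in 4 of 4 libraries, did not pass (limma adjusted p = 0.32). Tra2b and Tra2a, splicing activators related to the fly Transformer-2 protein, differed from each other in spread. Tra2b-206 was at 38.54, 38.21, 31.47 and 40.01 TPM and made up 21.7, 27, 19.1 and 27% of Tra2b, lower than protein-coding (log2 ratio -1.58 ± 0.24, limma adjusted p = 0.00031). Tra2a-202 held 23.8, 25.8, 35.1 and 54.3% of Tra2a. Its protein-coding transcripts were at 18.3, 13.08, 10.03 and 7.139 TPM, and the log2 ratio was -0.15 ± 0.36 (limma adjusted p = 0.71), turning to 0.22 without library 1.

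The other SR genes kept most of their output in other transcripts. Member shares were 11.5 ± 3.75% for Srsf11, 8.72 ± 2.09% for Srsf4, 7.02 ± 1.40% for Srsf1, 6.21 ± 2.39% for Srsf9 and 4.80 ± 1.02% for Srsf2, and all 5 were lower than protein-coding. In Srsf5 the member was all but missing, at 0.3235, 0.3358, 1.224 and 0 TPM against a mean gene level of 494.9 TPM. Across this family the member share therefore ran from below 0.2% to above 50% with the same annotation class.

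Among 49 hnRNP and other splicing regulators, 31 had members and were tested: 2 were higher (Hnrnpu and Rbm5), 25 lower and 4 in neither direction, with a median share of 10.7%. These counts lie near the 4.52% higher and 83.9% lower over all parent genes. Rbm5, a regulator of alternative splicing in apoptosis genes, had members at 47.05, 47.04, 74.9 and 75.6 TPM, higher in libraries 3 and 4, against 30.32, 31.66, 49.03 and 41.81 TPM in protein-coding transcripts. The log2 ratio for Rbm5 was 0.65 ± 0.22 (limma adjusted p = 0.022). It did not pass without library 1, 3 or 4, at adjusted p values of 0.05, 0.058 and 0.066, and its top member Rbm5-210 has no own 31-base word. Tardbp, which encodes TDP-43 and is known to limit its own mRNA, divided its output evenly over libraries: its 10 members held 45.1, 43.7, 43.1 and 42.2% (log2 ratio -0.35 ± 0.21, limma adjusted p = 0.16). Rbm39, a coactivator of splicing, had 8 members that together held 30.7 ± 2.68% (log2 ratio 0.22 ± 0.23, limma adjusted p = 0.39). Hnrnpdl, an hnRNP D relative, held 34.6 ± 3.90% in its members and was lower than protein-coding (log2 ratio -0.79 ± 0.24, limma adjusted p = 0.013).

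The decay machinery itself was expressed. All 25 genes of the list of surveillance and exon junction factors reached 1 TPM, from Ncbp3 at 3.84 ± 1.16 TPM to Eif4a3, the helicase that anchors the exon junction complex, at 159 ± 15.6 TPM. Upf1, the central helicase of the pathway, was at 26.3, 22.36, 25.83 and 24.81 TPM. Only 4 of the 25 genes had members, and none was higher than protein-coding, 3 were lower and 1 passed in neither direction, too few to set against the 83.9% lower over all parent genes. That 1 was Magohb, a copy of the exon junction protein Magoh, whose 3 members stood at 20.11, 20.22, 13.67 and 9.539 TPM, 48.8 ± 5.98% of the gene. Its protein-coding transcripts were at 17.47, 15.18, 10.89 and 12.35 TPM, below the members in 3 of 4 libraries (log2 ratio 0.14 ± 0.25, limma adjusted p = 0.62). Smg5 and Smg6, which bring phosphatase and endonuclease activity to UPF1, and Smg1, the kinase of UPF1, had members at no more than 2.471 TPM in any library. For Smg1 the lower call did not hold with edgeR (adjusted p = 0.095, against 0.0057 with limma).

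**Figure D5:**
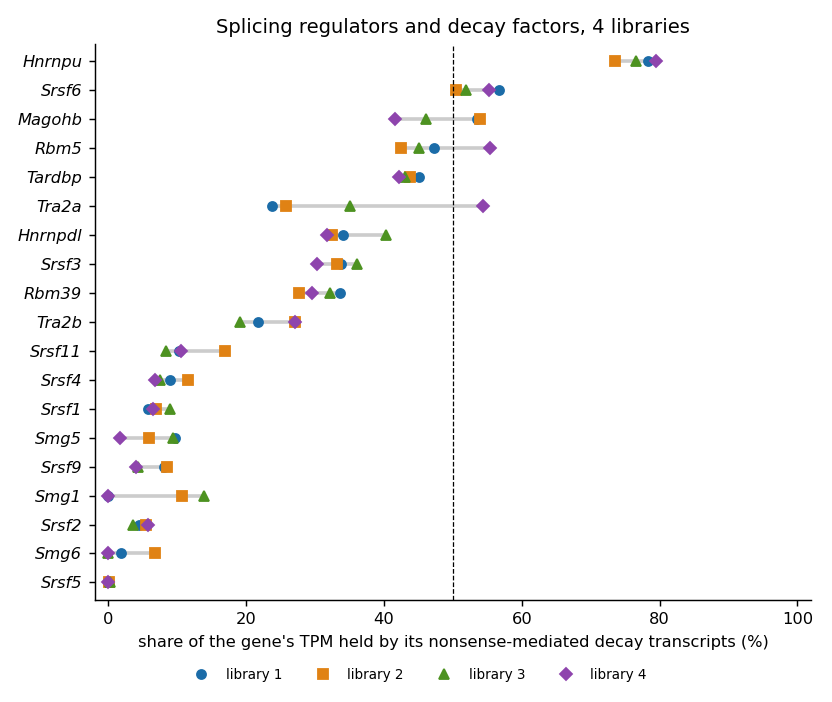
Share of gene TPM held by members in each library (symbols) for the SR genes, the leading other splicing regulators and the 4 decay factors that have members; grey lines join the lowest and highest library and the dashed line marks 50%. Hnrnpu and Srsf6 lie above 50% in every library, Srsf5 near 0, and Tra2a spans 23.8 to 54.3%.

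Stress mRNAs that are textbook targets of the pathway through features other than this annotation had no members. Of 8 such genes 7 were quantified, and none had a transcript of this type. Their gene levels ran from 2.26 ± 1.82 TPM for Trib3, which was at 0 in library 4, to 129 ± 23.2 TPM for Atf4, the transcription factor of the integrated stress response. Atf3 varied most in TPM, with a mean of 101 ± 58.3 TPM.

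Genes of translation gave counts over few tested genes, to be read against 4.52% higher and 83.9% lower over all parent genes. Of 93 cytosolic ribosomal protein genes 15 had members and were tested, with 1 higher, 13 lower, 1 in neither direction and a median share of 4.37%. Rpl13a members stood at 88.67, 68.85, 57.43 and 74.83 TPM and Rps19-205 at 36.89, 52.22, 42.82 and 42.27 TPM, yet these were only 11.4 ± 0.956% and 4.37 ± 0.738% of genes of high level. Rpl22l1 members held 9.91 ± 1.95%; the lower call (log2 ratio -0.63 ± 0.24, limma adjusted p = 0.037) was lost without any 1 library, at adjusted p values of 0.06 to 0.14, with edgeR at 0.26 and with a pseudocount of 0.1 at 0.08. Rpl10a varied from 6.7 to 34.1% (log2 ratio -1.27 ± 0.45, limma adjusted p = 0.027). It did not pass without library 2 or 3, at adjusted p values of 0.12 and 0.13, nor with edgeR at 0.097 or a pseudocount of 0.1 at 0.069. Of 32 translation factor genes 7 were tested, with 1 higher (Eef1b2), 6 lower and a median share of 4.08%. Eif4a2, an RNA helicase of translation initiation, had 22.6, 31.5, 24 and 42.1% in members. Its log2 ratio was -0.83 ± 0.26 (limma adjusted p = 0.017), did not pass without library 1 or 3 (adjusted p = 0.072 and 0.062), and turned to 0.98 (adjusted p = 0.0095) with same-version transcripts only. Eif4a1, its close relative, gave only 1.45 ± 0.761% to its member.

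The title of the series names intracellular calcium and the day and night cycle, so genes of both were looked at. Of 24 calcium genes 6 had members and were tested, with none higher, 5 lower (83.9% over all parent genes), 1 in neither direction and a median share of 10.7%. Atp2b2-206, the plasma membrane pump transcript with the late stop, was at 6.464, 9.289, 9.001 and 17.34 TPM, highest in library 4. Its protein-coding transcripts moved along at 19.34, 23.17, 26.16 and 47.3 TPM, so the share stayed at 23, 26.4, 24.8 and 26.6% (log2 ratio -1.38 ± 0.23, limma adjusted p = 0.00051). Atp2a2, the calcium pump of the endoplasmic reticulum, had 20.19 to 26.88 TPM in Atp2a2-203, 13.0 ± 2.11% of the gene, in a transcript with the full coding length of 3132 bases. The inositol trisphosphate receptor genes Itpr1 and Itpr2 gave 8.34 ± 1.29% and 25 ± 8.96%. Itpr2, with members at 4.366, 4.585, 7.937 and 4.175 TPM against 5.055, 3.395, 4.433 and 5.9 TPM, passed in neither direction (log2 ratio 0.12 ± 0.29, limma adjusted p = 0.70), and its ratio was -0.08 without library 3. The members of Mcu, the mitochondrial calcium uniporter, and Calm3, a calmodulin gene, were at or near 0: 1.51 ± 1.37% of Mcu and 0 in every library for Calm3.

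Of 22 clock genes 4 had members, all lower than protein-coding, as were 83.9% of all parent genes, with a median share of 4.60%. Rora, a nuclear receptor that activates Bmal1, had members at 0, 1.812, 6.99 and 5.152 TPM, listed at 0 in library 1. Per3, a period gene, had 0.6112 to 1.948 TPM in its member, and Csnk1d, the kinase that phosphorylates period proteins, had 1.207 to 5.659 TPM. The member of Per1, another period gene, had a value in library 2 alone, 1.188 TPM. All 6 cell cycle genes tested were lower, again beside 83.9% over all parent genes, with a median share of 1.33%. The highest was Cdk4, the kinase partner of D-type cyclins, with 47.8, 60.16, 60.84 and 52.61 TPM in its member, 8.65 ± 0.927% of the gene. Ccna2, encoding cyclin A2, followed at 10 to 24.92 TPM, and Cdc20, Plk1 and Mcm2 stayed at mean shares of 2.07, 0.597 and 0.147%. Among cell type markers, Prom1 and Clu had members: that of Prom1, used in the sort, was listed at 0 in all libraries, and that of Clu held 0.138 ± 0.0947% of a gene at 3682.6 TPM. The neuronal marker Gad1 gave 2.35 ± 1.90%, and the ependymal Dnah11 20.9 ± 18.4% of a gene at 1.954 TPM.

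Mgll and Gpm6b were also among the genes of the 12 highest members. Mgll, the lipase that degrades the endocannabinoid 2-AG, held 44.4, 43.8, 43.4 and 45.5% in its members, which passed in neither direction against protein-coding (log2 ratio -0.22 ± 0.21, limma adjusted p = 0.34). Its top member Mgll-209 has no own 31-base word. Gpm6b, a proteolipid of neural membranes, had members at 151.9, 75.2, 79.93 and 182.7 TPM, higher in libraries 1 and 4. Protein-coding transcripts of Gpm6b were at 991.2, 699.1, 939.3 and 841.8 TPM, so members held 7.67 to 17.6%.

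In a few genes the member share differed widely from library to library. The largest SD of the share among parent genes of at least 10 TPM was in Gpatch1, a splicing-related G-patch protein, at 14.1, 57.1, 55.3 and 96.6%, with protein-coding transcripts at 0 in library 4. Its log2 ratio of 0.79 ± 0.85 (limma adjusted p = 0.40) turned to -0.41 without that library. Nacad, a relative of a nascent-chain-binding protein, was at 60.2, 51.4, 0 and 77.3%, with a ratio of -0.25 ± 0.67 that turned to 0.70 without library 3. Wdr62, a centrosomal protein needed for cortical growth, had 61.4% in library 2, 31.3% in library 3 and under 3% in libraries 1 and 4. Lins1, a homologue of a fly segment polarity gene, was at 18.8, 32.6, 70.2 and 71.5%, and Vps33b, a vesicle tethering protein, at 21.1, 2.92, 23.1 and 65.8%. The log2 ratio of Wdr62 was -1.33 with all libraries and -2.20 without library 2. For Vps33b it was -1.03 with all libraries and -1.68 without library 4. All 5 genes had mean levels between 12.54 and 17 TPM, and none passed the test with 4 libraries. They were picked for their large spread, so neither that outcome nor the ratios without 1 library are evidence about their levels. The top members of Gpatch1, Nacad, Wdr62, Lins1 and Vps33b had 28, 15, 84, 7 and 46 own 31-base words. Nacad-202 rested on 34.89, 42.39, 0 and 64.19 estimated counts in libraries 1 to 4. The part of sampling and of the division of shared reads in these spreads was not tested. The highest share fell in library 4 for 4 of these genes and in library 2 for Wdr62.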

How the data were processed

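RNA of 4 libraries was measured by paired-end sequencing of amplified low-input cDNA. The tools kallisto and sleuth and the build mm10 are named per the submitters' processing notes; for versions and the index's transcript release, none is given in the sources used. Deposited for each transcript are an estimated count, which divides shared reads by estimate, a TPM value scaled by the authors to effective length, and the length and effective length in bases.

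Identifiers matched GENCODE M21 without version for 98294 of 99567 transcripts, 92612 with the same version. The remaining 1273 took 0.53 to 0.619% of the counts per library and 2.59 to 4.56% of the TPM. Of 7186 transcripts of this type in M21, 1500 were not analysed here. Depth was 16978938 to 23727664 estimated counts. Sequences of 98206 transcripts gave the 31-base words.

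Groups came from the labels (1 group). Members, lists and tests were chosen with earlier results of these data known. Levels were tested against 1 TPM with limma on log2(TPM + 1), two-sided, threshold 0.05 after Benjamini-Hochberg adjustment. Parent genes were tested by the within-library log2 ratio with a pseudocount of 1, for genes whose classes together reached a mean of 1 TPM; 553 parents below it and 83 without a quantified protein-coding transcript were not tested. Folds understate changes of low genes. Scripts were tested on simulated data.

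Named were the 12 highest members, the 15 led genes of highest member level, the 5 of largest SD of share, all SR, decay, clock and calcium genes with members, and up to 5 genes of each other list. Some of these are left out of the text. Alternatives were a pseudocount of 0.1, other filters and scalings, edgeR, estimated counts, nuclear genes only, same version only, a strict 50-base rule, and each library left out. Library pairs differed beyond sampling noise. Software was R 4.3.3, limma 3.58.1, edgeR 4.0.16, DESeq2 1.42.0 for size factors, and Python 3.11.15 with pandas 2.3.3.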

Additional observations from a re-analysis of the deposited data

Results flagged for a closer look

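Of 84 sets of 4 values checked, 4 had 1 library far from the rest by Dixon's criterion, where chance gives about 1 in 20. The share of Mobp held by its member was 94.5% in library 1 and 75.7 to 78.6% in the others. The share of Per1 was 9.1% in library 2 and 0 elsewhere. The share of Mcm2 was 0.588% in library 3 and 0 elsewhere. With 0 elsewhere any single value meets the criterion, so the flags of Per1 and Mcm2 say no more than that. The share of Mbp was 0.152% in library 2 and at most 0.0163% elsewhere. In the flagged library the members of Per1, Mcm2 and Mbp stood at only 1.188, 0.553 and 2.445 TPM.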

How the results depend on the processing

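No paired analysis was possible because the labels give 1 group, so no replicate numbers are shared between groups; ratios and differences of classes were taken within libraries. The share of TPM held by members was 2.60% over nuclear genes only and 2.04 to 2.14% with each library left out. The difference from retained introns was -2.03 to -1.63 points with each library left out. Members below 1 TPM fell from 1329 to 331 with a minimum mean of 5 counts, which tests fewer transcripts, and to 32 with edgeR's quasi-likelihood test; the cause of the latter was not tested. With each library left out, 818 to 909 members lay above and 969 to 1034 below 1 TPM, 112 to 125 parent genes were higher and 2430 to 2483 lower, 122 to 127 were led by over 50%, and 180 to 184 had 1 member at the top. Higher parents numbered 116 with a pseudocount of 0.1, 150 with no filter and 141 with same-version transcripts.

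Of 81 results for single genes or transcripts, 66 kept direction and call under every alternative run. Of their 804 values under alternatives, 773 did so, 23 lost the call, 3 gained one and 5 turned direction. The 5 were, as log2 ratios, Gpatch1 at -0.41 without library 4 (up to 1.70 without others), Nacad at 0.70 without library 3 (down to -0.85), Itpr2 at -0.08 without library 3 (up to 0.30), Tra2a at 0.22 without library 1 (down to -0.44), and Eif4a2 at 0.98 with same-version transcripts; the cause was not tested. Low members are limited by depth, at a median of 0.261 to 0.386 TPM for 3 counts. Division of shared reads cannot be checked from these tables.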
